A study of Drosophila melanogaster with 6 samples.

Results

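Expression of 10 genes of the ecdysone response was followed through RNA of whole Drosophila melanogaster larvae. They are EcR and usp, which encode the receptor of the moulting hormone, and br, Eip74EF, Eip75B, Eip78C, Hr4, Hr39, ftz-f1 and Eip93F, which encode transcription factors that the hormone turns on or off. The genes were listed by symbol, with no threshold on a measured value, and all 10 were found among the 17908 genes of the deposited count table. All 10 passed the filter on low counts, with 11866 genes tested in total. The study sequenced polyadenylated RNA of 3 genotypes, with 2 libraries each. Rescue larvae are labelled fiomut ,[U6+]/fiomut ;U6mut/U6+, mutant larvae fiomut/fiomut ;U6mut/U6+, and control larvae fiomut/cyo, which the labels also abbreviate as wt. The controls therefore carry a fio mutant chromosome too, over the CyO balancer, and only the mutant and rescue genotypes carry the U6 mutation. The element [U6+] is read here as an added U6 gene, and fio as the gene for METTL16, an m6A methyltransferase named in the series title. The labels give neither age nor stage, and do not say whether larvae were pooled or whether the libraries of a genotype came from separate cultures, so the p-values reflect library-to-library spread alone, which may be technical.

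Ecdysone is the steroid that times moulting and metamorphosis in insects. It binds a pair of nuclear receptors, EcR and its partner usp, and each hormone pulse sets off a cascade: early genes such as br, Eip74EF and Eip75B respond directly, and early-late genes such as Eip78C, Hr4 and Hr39 follow. ftz-f1 is held down by the hormone and appears after a pulse has faded, in the prepupa, where it prepares tissues for the next pulse, and Eip93F acts around that later pulse in the death of larval tissues and in the adult programme. In the last larval stage, br is also needed for glue gene expression in the salivary gland. The order of these genes is therefore commonly used to place a larva or prepupa in time.

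The libraries held 15983161 to 17847161 counts. Levels below are CPM, read counts relative to library size scaled by trimmed-mean (TMM) factors, unless FPKM, the deposited value per kilobase of gene, is named. The TMM factors were 1.10 and 1.11 in rescue, 1.01 and 1.04 in mutant and 0.820 and 0.955 in control. Mitochondrial lrRNA held 8.22% and 7.40% of counts in rescue, 4.56% and 3.49% in mutant and 11.6% and 8.62% in control. Control 1 thus had the lowest factor and the highest lrRNA share. CG7544, taken as the fio gene, had 22 and 46 counts in rescue, 52 and 25 in mutant and 41 and 35 in control, so its RNA does not check the genotype labels. All 8 larval markers (serum and cuticle protein genes) had counts in every library and summed to 74042 to 159014 CPM, while the adult photoreceptor genes summed to at most 1.13 CPM. The genotypes and the 2 control libraries differed in tissue markers. The 6 salivary glue genes summed to 13155 and 12918 CPM in rescue, 23.3 and 434 in mutant and 2574 and 7470.0 in control, with Sgs1 at 0 in mutant 1. The 4 fat body markers summed to 18822 and 22744 CPM in rescue, 919 and 991 in mutant and 3779 and 15557 in control. Fbp1, listed below as ecdysone-inducible, made up 17063.5 and 21050 CPM of these sums in rescue, 501 and 398 in mutant and 2271 and 13224.5 in control. Fbp2, not among these markers, had 4208 and 4753, 3991 and 3423, and 3361 and 6345.5 CPM. The 5 gut markers summed to 3563 and 953, 10238 and 10048, and 2022 and 1315 CPM. The 5 imaginal disc markers gave 181 and 174, 57.5 and 63.4, and 104 and 171 CPM. The part of these markers in the results below was not tested, and in whole larvae fewer cells of a type and less RNA per cell cannot be told apart.

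Rescue and mutant larvae were separated at every gene of the group. In rescue, 9 of the 10 genes lay above both mutant libraries and ftz-f1 lay below both, against 33.8% and 33.1% of all tested genes that lay entirely above or below. By edgeR's quasi-likelihood test at an adjusted p under 0.05 (here "called"), br, Eip74EF, Eip75B, Eip78C and Hr4 were higher and ftz-f1 lower in rescue than in mutant, 6 calls of 10, against 16.1% of all tested genes (7.61% higher and 8.47% lower). Between mutant and control, br, Eip74EF and Eip93F were lower in mutant, 3 calls of 10 and none higher, against 17.0% of all tested genes (9.94% higher and 7.04% lower). Mutant lay below both control libraries at 8 genes and above both at 0, against 30.2% and 30.7% of tested genes. Between rescue and control none was called by edgeR, DESeq2 or limma-voom, against 0.640% of all tested genes by edgeR (0.354% higher and 0.287% lower). Eip75B, Hr4 and ftz-f1 had an unadjusted p under 0.05, as did 18.8% of tested genes. Rescue lay above both control libraries at 8 genes and below both at ftz-f1, against 30.7% and 23.5%. The median log2 fold change of the 10 genes was 1.59 for rescue against mutant, -0.95 for mutant against control and 0.46 for rescue against control, beside 0.00, -0.02 and 0.07 over all tested genes. These comparisons share libraries and are not independent of each other. Single libraries moved these counts: without mutant 1, mutant 2 or rescue 2, 2, 3 and 3 genes were called for rescue against mutant, while the share called of all tested genes was 3.25%, 5.14% and 5.20%. Without mutant 1 or control 2 only br was called for mutant against control, beside 4.97% and 9.90% of all tested genes. Without control 2 Eip78C and Hr4 were called higher in rescue than in control, beside 6.33% of all tested genes.

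**Figure D1:**
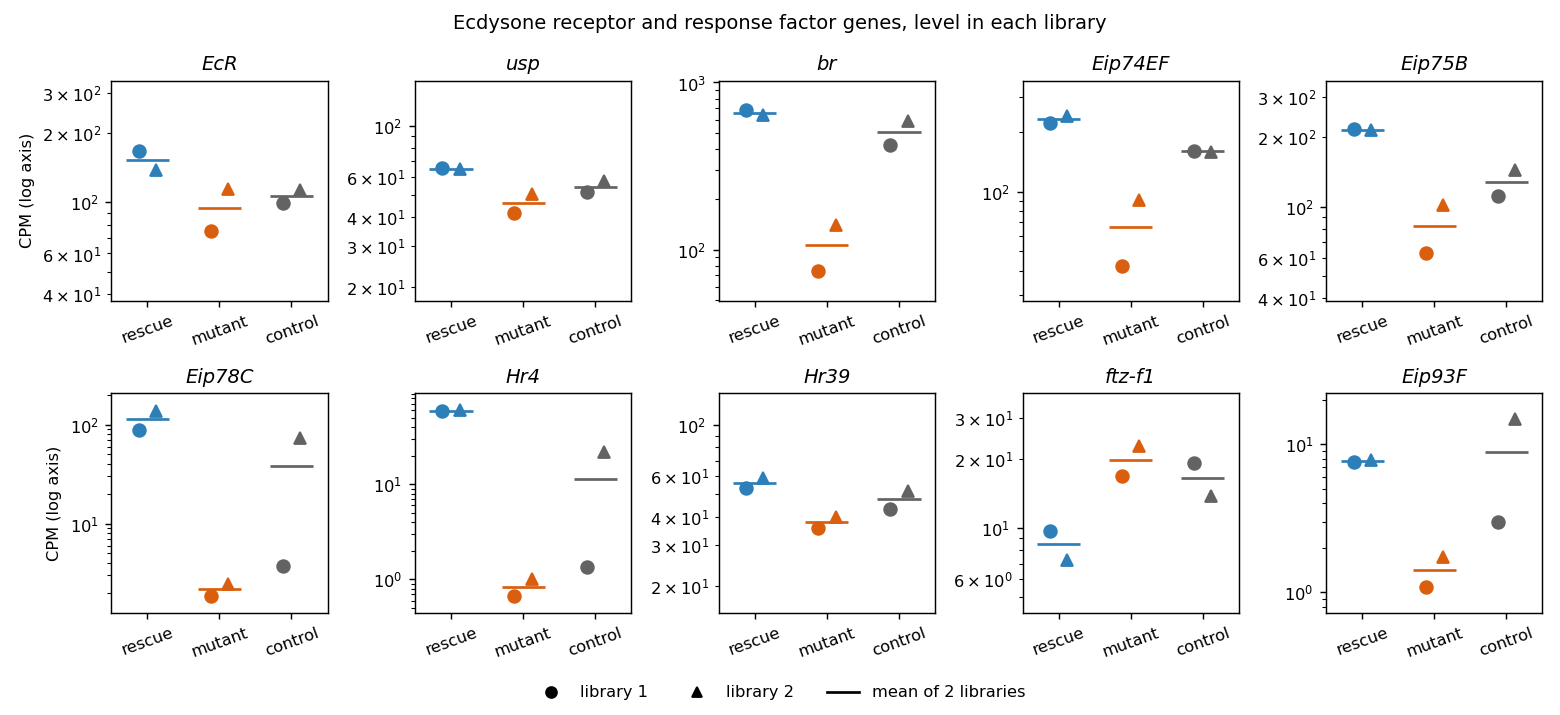
CPM of the 10 genes in each library, on log axes, with the rescue, mutant and control genotypes side by side; circles are library 1, triangles library 2, and bars their mean. In rescue, 9 genes lie above both mutant libraries and ftz-f1 lies below both, and the control libraries are far apart for Eip78C, Hr4 and Eip93F.

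None of the differences of the receptor genes was called. EcR (2R, 6087873 to 6169087, minus strand) had 167 and 138 CPM in rescue, 75.2 and 114 in mutant and 99.8 and 113 in control. Mutant 2 lay above both control libraries and mutant 1 below them, so the mutant and control groups overlap, while both rescue libraries lay above all others. The log2 fold change was 0.69 for rescue against mutant (SE 0.26, interval 0.08 to 1.29, adjusted p = 0.112), -0.16 for mutant against control (adjusted p = 0.682) and 0.52 for rescue against control (adjusted p = 0.328). The interval for mutant against control, -0.76 to 0.44, leaves room for a change of either sign, and the sign turned without mutant 1 (0.11) and with library totals as the only scaling (0.038). usp (X, 2038798 to 2042311, minus strand), the partner needed for DNA binding, had 65.2 and 64.7 CPM in rescue, 41.6 and 50.3 in mutant and 51.3 and 57.4 in control. These groups do not overlap, and the ranking is rescue, control, mutant, but no difference was called: the log2 fold change was 0.50 for rescue against mutant (SE 0.19, adjusted p = 0.112) and -0.24 for mutant against control (adjusted p = 0.396). Per length, EcR RNA stood at 0.786 and 0.651 of usp RNA in rescue, 0.553 and 0.695 in mutant and 0.595 and 0.600 in control. In the Release 6 annotation, 265 exonic bases of usp are shared with Actn on the same strand and 196 with CG4313 on the other. Actn had 8325 to 22766 counts, so reads there could have been counted for either gene.

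Of the early genes, br kept its calls under every alternative tried. br (X, 1575132 to 1664869, plus strand) encodes a family of BTB zinc-finger proteins that commit tissues to the pupal programme. It had 680 and 642 CPM in rescue, 74.1 and 139 in mutant and 424 and 584 in control, or 661 ± 27.1, 107 ± 46.2 and 504 ± 113 (SD, n = 2 each). Both mutant libraries lay far below all others, and rescue stood above control in each library. br was 6.19-fold higher in rescue than in mutant (log2 2.63, SE 0.36, adjusted p = 0.00558) and lower in mutant than in control by a log2 fold change of -2.24 (SE 0.35, adjusted p = 0.00780). Over those 14 alternatives it was called in both comparisons, with adjusted p up to 0.0350 and 0.0418. For rescue against control the log2 fold change was 0.39, with an interval from -0.40 to 1.18 (adjusted p = 0.580).

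Eip74EF (3L, 17558672 to 17619325, minus strand), which encodes an ETS-domain factor, had 222 and 240 CPM in rescue, 42.3 and 90.8 in mutant and 160 and 159 in control. The control libraries nearly coincided, while mutant 2 was 2.15 times mutant 1, a gap exceeded by 5.79% of tested genes. It was 3.47-fold higher in rescue than in mutant (log2 1.79, SE 0.35, adjusted p = 0.0183), a call lost without rescue 2 (adjusted p = 0.0600; range over 14 alternatives 5.06e-05 to 0.0600). Mutant stood below control by a log2 fold change of -1.26 (SE 0.35, adjusted p = 0.0480). That call lay at the threshold and was lost under 8 of 14 alternatives, among them leaving out mutant 1, either control or either rescue library (adjusted p up to 0.104; lowest 0.00623). Without mutant 2 the log2 fold change was -1.91 for mutant against control (adjusted p = 0.0168) and 2.45 for rescue against mutant (adjusted p = 0.0165). Eip75B (3L, 17950953 to 18064696, minus strand) encodes a haem-binding nuclear receptor that represses Hr3 activity. It had 217 and 215 CPM in rescue, 63.2 and 102 in mutant and 111 and 145 in control, again in the order rescue, control, mutant with no overlap. Rescue was 2.62-fold above mutant (log2 1.39, SE 0.28, adjusted p = 0.0199), and without mutant 1, rescue 1 or rescue 2 the adjusted p was 0.0916, 0.0608 and 0.0718 (range over 14 alternatives 1.35e-04 to 0.0916). Against control, mutant had a log2 fold change of -0.63 (adjusted p = 0.158) and rescue one of 0.76 (adjusted p = 0.208).

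Of the early-late genes, Eip78C and Hr4 were nearly silent in mutant and in control 1. Eip78C (3L, 21226609 to 21266503, plus strand), a nuclear receptor gene related to Eip75B, had 1552 and 2522 counts in rescue, 31 and 41 in mutant and 50 and 1244 in control. In CPM these are 88.4 and 138, 1.87 and 2.45, and 3.76 and 73.0. Control 1 thus lay close to the mutant libraries and control 2 close to rescue 1. Hr4 (X, 1941940 to 2007956, plus strand), which encodes a nuclear receptor that acts as a repressor within the cascade, had 1036 and 1104 counts in rescue, 11 and 17 in mutant and 18 and 368 in control. Its CPM values were 59.0 and 60.3, 0.665 and 1.02, and 1.35 and 21.6, the same arrangement with control 2 further below rescue. For rescue against mutant, Eip78C had a log2 fold change of 5.70 (SE 1.24, adjusted p = 0.0247) and Hr4 one of 6.14 (SE 1.16, adjusted p = 0.0161). With 1 library left out these log2 fold changes ranged over 5.35 to 5.99 and 5.86 to 6.47. Both calls were lost without mutant 1 (adjusted p = 0.175 and 0.139) or mutant 2 (0.146 and 0.114), and the call on Eip78C also with limma-voom (0.0585). The ranges of adjusted p over 14 alternatives were 3.17e-04 to 0.175 for Eip78C and 6.33e-05 to 0.139 for Hr4.

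For mutant against control the value of these genes changed with the control library used. With both, the log2 fold change was -4.15 for Eip78C (adjusted p = 0.0522) and -3.77 for Hr4 (adjusted p = 0.0576). Eip78C was called under 6 of 14 alternatives, among them DESeq2 (0.0164), no filter on low counts (0.0191) and leaving out either rescue library (0.0433 and 0.0445). Hr4 was called under 3, DESeq2 (0.0258), no filter (0.0232) and without control 1. With control 2 alone it was -5.06 and -4.66 (adjusted p = 6.91e-04 and 6.88e-04), and with control 1 alone -0.79 and -0.68 (adjusted p = 0.236 and 0.309), where the lone library is assumed to vary like the other groups. For rescue against control the values were 1.55 and 2.36 with both libraries, 0.64 and 1.47 with control 2 alone, and 4.91 and 5.45 with control 1 alone (adjusted p = 0.00706 and 0.00479). Hr39 (2L, 21237250 to 21259675, plus strand), the closest relative of ftz-f1 among these receptors, behaved like usp instead. It had 53.1 and 58.7 CPM in rescue, 35.7 and 39.9 in mutant and 43.4 and 51.8 in control, without overlap between the groups. Its log2 fold change was 0.56 for rescue against mutant (SE 0.19, adjusted p = 0.0842) and -0.33 for mutant against control (SE 0.19, adjusted p = 0.256).

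ftz-f1 (3L, 18750607 to 18801309, minus strand), the gene of the hormone-free interval, was the exception in direction. It had 170 and 133 counts in rescue, 277 and 378 in mutant and 254 and 235 in control, or 9.69 and 7.26, 16.8 and 22.6, and 19.1 and 13.8 CPM. Both rescue libraries lay below all others, and mutant and control overlapped. The log2 fold change was -1.21 for rescue against mutant (SE 0.29, adjusted p = 0.0321), -0.95 for rescue against control (SE 0.29, adjusted p = 0.141) and 0.26 for mutant against control (adjusted p = 0.549). The call against mutant was lost when any of the mutant or rescue libraries was left out (adjusted p = 0.0700 to 0.189; range over 14 alternatives 0.00412 to 0.189). In the annotation, 29.4% of its exonic bases are shared with the noncoding RNA gene CR45939 on the same strand, which had at most 5 counts in a library.

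Eip93F (3R, 21949114 to 22014539, plus strand) encodes a helix-turn-helix factor best known for the death of larval salivary glands. It had 134 and 143 counts in rescue, 18 and 29 in mutant and 40 and 251 in control, or 7.64 and 7.81, 1.09 and 1.73, and 3.01 and 14.7 CPM. Control 2 was the highest library and both mutant libraries the lowest. Mutant was below control by a log2 fold change of -2.66 (SE 0.71, adjusted p = 0.0429), or -1.09 with control 1 alone (adjusted p = 0.140) and -3.37 with control 2 alone (adjusted p = 0.00200). This call was also lost without mutant 1 or mutant 2 (adjusted p = 0.221 and 0.157), with limma-voom (0.114) and with library totals as scaling (0.0517), a range over 14 alternatives of 0.00167 to 0.221. For rescue against mutant the log2 fold change was 2.45 (SE 0.70, adjusted p = 0.0560), and it was called under 6 of 14 alternatives. These were DESeq2 (adjusted p = 0.00475), no filter on low counts (0.0267), only the compared groups (0.00409), the replicate block (0.0357) and leaving out either control library (0.00291 and 0.00394), and the highest adjusted p was 0.256, without mutant 1. Against control it was -0.21 and turned to 1.36 with control 1 alone.

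**Figure D2:**
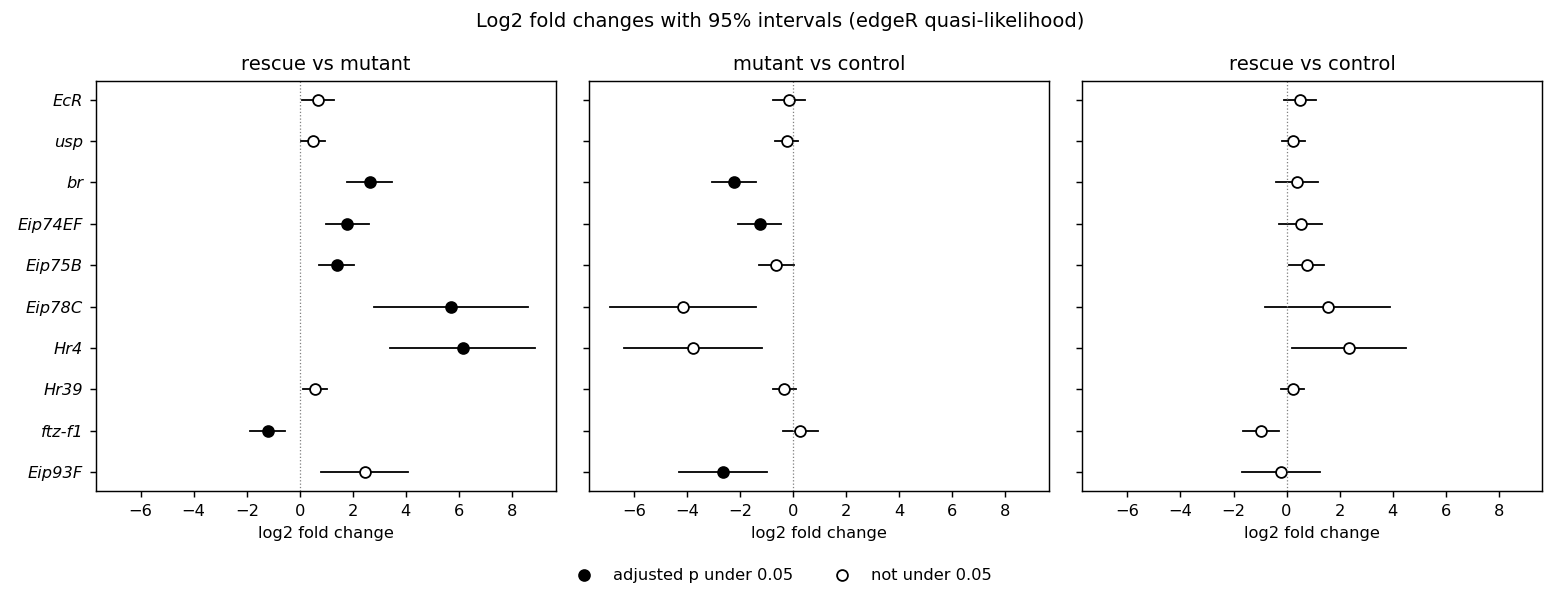
Log2 fold changes of the 10 genes for rescue against mutant, mutant against control and rescue against control, with 95% intervals; filled points have an adjusted p under 0.05. For rescue against mutant 6 genes are filled, with Hr4 at 6.14 and ftz-f1 at -1.21, and the intervals are widest for Eip78C and Hr4.

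The replicates of a genotype also differed at these genes, though not always in the order of the cascade. All 10 genes were higher in mutant 2 than in mutant 1, against 49.7% of all tested genes, from 1.12 times for Hr39 to 2.15 times for Eip74EF. The exact 95% counting interval of this ratio included 1 at Hr39 (0.999 to 1.25) and Eip78C (0.799 to 2.15). It also did at Hr4 (0.674 to 3.60) and Eip93F (0.854 to 3.04). Gaps wider than those of Hr39, usp and Eip74EF were found at 73.7%, 56.3% and 5.79% of tested genes. Control 2 exceeded control 1 at 8 of 10 genes, against 51.8% of all tested genes, and past 4-fold at 3 of them, against 2.32%. The 4-fold limit was chosen with the values known. The control 2 to control 1 ratio was 19.4 for Eip78C (exact 95% counting interval 14.7 to 26.3), 16.0 for Hr4 (9.97 to 27.3) and 4.90 for Eip93F (3.50 to 7.03). Gaps in either direction larger than these were found at 0.303%, 0.337% and 1.85% of tested genes. The early genes did not share the gap: the ratio was 1.38 for br, 1.31 for Eip75B and 0.988 for Eip74EF, and it was 0.723 for ftz-f1. The rescue libraries differed less, with Eip78C at a ratio of 1.56 as the widest gap and 5 of 10 genes higher in rescue 2, against 49.4% of all tested genes. No gene of the group passed 4-fold within rescue, where 0.758% of tested genes were higher and 1.68% lower in library 2, or within mutant, where 1.04% and 1.47% were.

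Taken over the 10 genes together, the gap between the control libraries ran parallel to that between rescue and mutant, which uses none of the same libraries. Over the 10 genes, the log2 difference of control 2 minus control 1 and that of rescue minus mutant had the same sign at 9 and correlated with Pearson's r = 0.918 and Spearman's rho = 0.842. Over the 11856 other tested genes the sign was shared by 64.6%, with r = 0.372 and rho = 0.363. Without Eip78C, Hr4 and Eip93F, r over the remaining 7 genes was 0.773 and rho 0.607. Among these 7, ftz-f1 lay apart, at -0.46 between the controls and -1.20 between rescue and mutant. The rest differed by only -0.02 to 0.46 between the controls, and no correlation without ftz-f1 was computed. The r and rho of the 7 genes therefore do not show that the rest follow the same pattern. These are correlations across genes scaled by the same factors, genes are not independent replicates, and no test is attached. Eip74EF was the gene that did not follow, with a difference of -0.02 between the controls and 1.89 between rescue and mutant. Control 1 lay nearer to the mutant mean than to control 2 at EcR, Eip78C, Hr4, Hr39, ftz-f1 and Eip93F, 6 of 10 against 38.8% of tested genes. Control 2 lay nearer to the rescue mean than to control 1 at br, Eip78C, Hr4, Hr39 and Eip93F, 5 of 10 against 52.7%, and both held at 4 genes against 28.8%. At br and Eip74EF, control 1 stood 2.06 and 1.37 above the mutant mean on the log2 scale, and its differences from control 2 were -0.46 and 0.02. Genotype and an unlabelled stage cannot be told apart in this design.

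**Figure D3:**
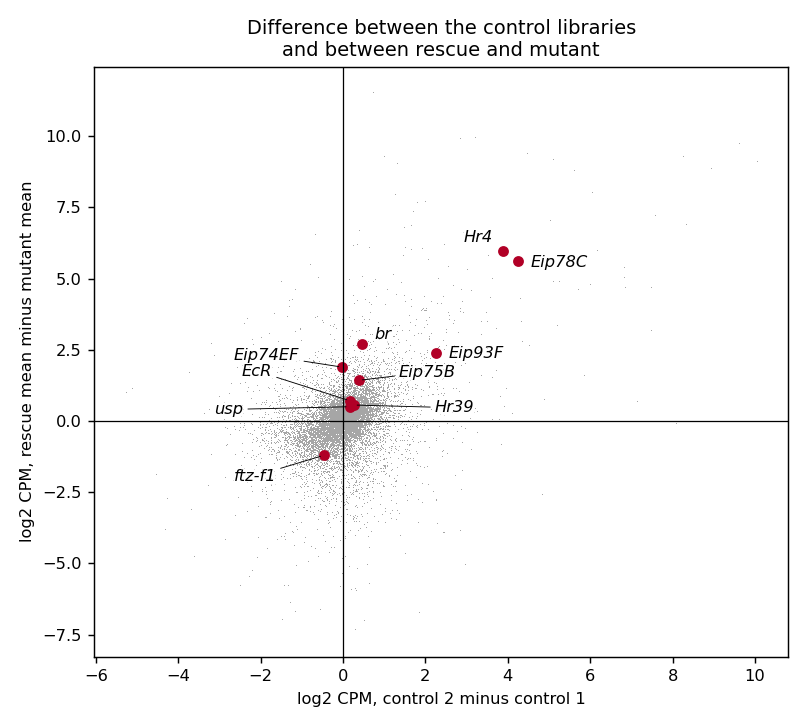
Log2 CPM of control 2 minus control 1 (horizontal) against the mean of rescue minus the mean of mutant (vertical) for the 10 genes (red, named) and all other tested genes (grey dots). Hr4, Eip78C and Eip93F lie at the upper right, while br, Eip74EF and Eip75B lie near 0 horizontally with differences of 1.43 to 2.70 vertically.

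Levels per gene length, in deposited FPKM, put the genes in a different order in each genotype. In rescue the order was br (32.7 ± 1.37), Eip74EF (24.2 ± 1.32), usp (20.9 ± 0.135), Eip78C (18.8 ± 5.79), Eip75B (15.7 ± 0.140), EcR (15.1 ± 2.09), Hr39 (11.0 ± 0.764), Hr4 (4.21 ± 0.0573), ftz-f1 (0.968 ± 0.197) and Eip93F (0.596 ± 0.00873; all SD, n = 2). Of neighbours in that order, usp and Eip78C, Eip78C and Eip75B, and Eip75B and EcR overlapped between libraries. In mutant the order began with usp (15.0 ± 2.22), EcR (9.48 ± 2.89) and Hr39 (7.52 ± 0.695), and EcR, Hr39, Eip74EF and Eip75B each overlapped with the gene after it, down to br. It ended with ftz-f1 (2.28 ± 0.507), Eip78C (0.365 ± 0.0734), Eip93F (0.110 ± 0.0371) and Hr4 (0.0601 ± 0.0185). In control br led (25.5 ± 5.13), usp (17.9 ± 0.991) and Eip74EF (17.1 ± 0.552) followed and overlapped, and Eip78C (6.45 ± 8.20) and Hr4 (0.816 ± 1.01) had SDs above their means and overlapped with the gene after them. br therefore stood first in rescue and control and sixth in mutant. Per length, br RNA was 2.04 and 2.34 times EcR RNA in rescue, 0.495 and 0.612 in mutant and 2.13 and 2.60 in control. Eip74EF RNA was 21.1 and 30.4 times ftz-f1 RNA in rescue, 2.32 and 3.70 in mutant and 7.73 and 10.6 in control. Gene totals add up alternative transcripts. The annotation lists 16 with 9 start sites for br, 7 with 7 for Eip75B, 6 with 4 for EcR and 5 with 3 for Eip74EF. A switch between isoforms would not show as such, but between isoforms of unlike length it could shift a gene's level, its place in the order and these ratios.

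**Figure D4:**
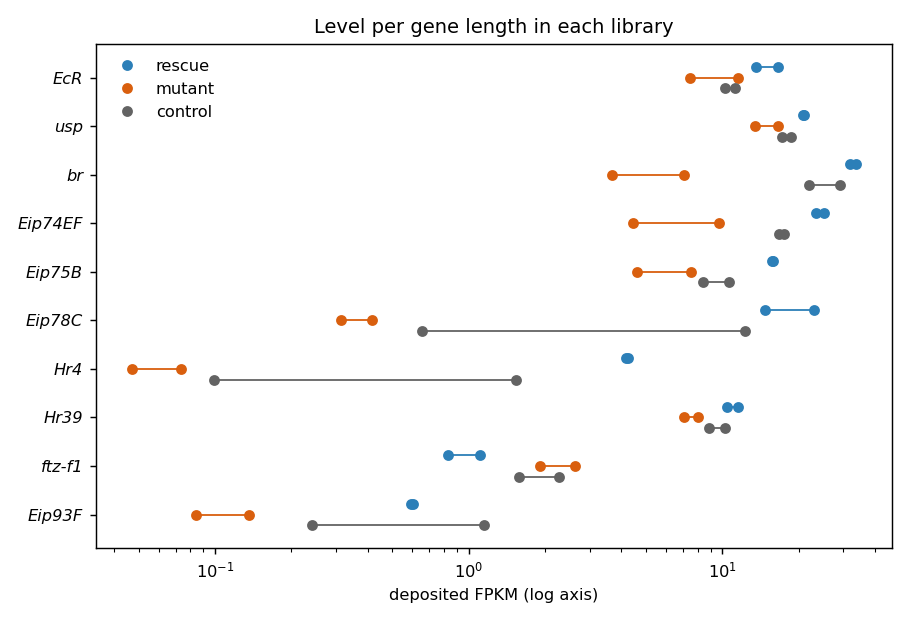
Deposited FPKM of the 10 genes in each library, on a log axis; the points of a colour are the 2 libraries of a genotype, joined by a line, with rescue above mutant above control. br stands at 32.7 in rescue, 5.37 in mutant and 25.5 in control on average, and the lines of the controls are long for Eip78C, Hr4 and Eip93F.

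Likeness of pattern was measured as the root mean square difference between log2 CPM profiles over the 6 libraries, each centred on its own mean. Eip78C and Hr4 were nearer to each other (0.350) than either was to any gene outside the group. The nearest outside gene was CG15905 for both, at 0.435 and 0.512. The profile of br was nearest to those of ato, a proneural gene of the eye and chordotonal organs (0.136), tll, a nuclear receptor gene of the brain (0.160), and E(spl)m7-HLH, a Notch target (0.179). For usp the nearest were Ars2, TER94 and Pcl (0.0246 to 0.0372), for EcR CG9467, CG11122 and kto (0.0861 to 0.0913), and for Hr39 CG15747, CoRest and Cap-D2 (0.0404 to 0.0437). Eip74EF was nearest to CG9932 (0.156), Eip75B to Cad96Cb (0.0913), ftz-f1 to Pde8 (0.119) and Eip93F to CG31775 (0.275). Small values partly reflect small variation: the SD of log2 CPM over the 6 libraries was 0.25 for usp and 2.96 for Hr4.

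Beyond the 10 genes, 9 lists of other genes of the pathway held 108 genes, 94 of them tested. For rescue against mutant 24 were higher and 3 lower in rescue (28.7% called, against 16.1% of all tested genes), with a median log2 fold change of 0.49. For mutant against control 4 were higher and 20 lower in mutant (25.5%, against 17.0%), with a median of -0.39. For rescue against control edgeR called 0 of 94, beside 14 of 99 by DESeq2 and 2 of 94 by limma-voom, which called 8.05% and 0.876% of all the genes they tested. With either mutant library left out, 99 of the pathway genes were tested. The first count was 7 without mutant 1 and 13 without mutant 2, where 3.25% and 5.14% of all tested genes were called. The second was 5, 11 and 9 without mutant 1, mutant 2 and control 2, beside 4.97%, 5.62% and 9.90%, and the third was 14 without control 2, beside 6.33%.

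Among genes that make the hormone, 4 of 9 tested were higher in rescue than in mutant (44.4%, against 16.1% of all tested genes called). These were the Halloween genes sad (621 and 720 counts in rescue, 122 and 142 in mutant; log2 2.23), phm (2.12), spok (1.98) and sro (1.76), which encode enzymes of ecdysteroid synthesis in the prothoracic gland. spok was also lower in mutant than in control (-1.28, adjusted p = 0.0491), or 11.1% of the list called against 17.0% of all tested genes. In the control libraries sad had 102 and 336 counts and phm 102 and 354, so control 1 again lay low. Of 8 genes of hormone timing, uptake and removal, 37.5% were called for rescue against mutant and 25% for mutant against control. All tested genes had 16.1% and 17.0% called. E23, an ecdysone-induced ABC transporter gene, had 1105 and 1099 counts in rescue, 39 and 109 in mutant and 117 and 609 in control (log2 3.79 for rescue against mutant, adjusted p = 0.0161). Cyp18a1, whose enzyme inactivates ecdysteroids, was higher in rescue than in mutant (0.81) and lower in mutant than in control (-1.28). Ilp8, a relaxin-like hormone gene whose product delays pupariation, moved the other way, with 16 and 3 counts in rescue, 151 and 389 in mutant and 15 and 12 in control.

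Of 13 other nuclear receptor and transcription factor genes tested, Hr78 was higher in rescue than in mutant (1.16) and lower in mutant than in control (-1.01). In that list 15.4% were called for rescue against mutant and 7.69% for mutant against control, against 16.1% and 17.0% of all tested genes. Kr-h1, the juvenile hormone target that opposes metamorphosis, had 265 and 294 counts in rescue, 128 and 137 in mutant and 115 and 123 in control (0.97 for rescue against mutant, adjusted p = 0.0325). Blimp-1, an ecdysone-induced repressor of ftz-f1, had 319 and 365 counts in rescue, 11 and 54 in mutant and 51 and 402 in control and was not called (log2 3.29 for rescue against mutant). It was named after its values were seen. Of 16 receptor partners and coregulators 1 was called, Bin1, higher in mutant than in control (1.10), and none between rescue and mutant by edgeR. These shares, 6.25% and 0%, compare with 17.0% and 16.1% of all tested genes. Of 9 juvenile hormone genes, the epoxide hydrolase genes Jheh3 and Jheh1 were lower in rescue than in mutant (-2.07 and -1.48) and higher in mutant than in control (1.28 and 1.06). Jhe, the gene for the hormone's esterase, was higher in rescue than in mutant (1.49), and FK506-bp1 lower in mutant than in control (-0.76). The juvenile hormone list had 44.4% called for rescue against mutant and 33.3% for mutant against control, against 16.1% and 17.0% of all tested genes. Of 10 cell death genes, Atg1, a kinase gene of autophagy, was higher in rescue than in mutant (1.44), or 10% called against 16.1% of all tested genes.

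Glue genes had the largest medians of the 9 lists in both of these comparisons. Of 10 glue genes tested, 6 were higher in rescue than in mutant (median 5.63) and 7 lower in mutant than in control (median -4.03). These shares, 60% and 70%, compare with 16.1% and 17.0% of all tested genes called. Sgs5 had 55439 and 73337 counts in rescue, 160 and 1772 in mutant and 7474 and 26646 in control, and mutant 2 lay above mutant 1 here as it did for br. The new-glue genes of the same list had another pattern: ng1, ng2 and ng3 had log2 fold changes of -0.35, -0.53 and -0.24 for rescue against mutant, none called, and ng1 and ng3 were lower in mutant than in control (adjusted p = 0.0384 and 0.0197). For rescue against control these 2 had -2.77 and -2.24 (adjusted p = 0.0809 and 0.0598), and they were named after their values were seen. Of 15 late puff and ecdysone-inducible genes tested, 5 were higher in rescue than in mutant (median 0.60) and 6 lower in mutant than in control (median -0.90), or 33.3% and 40%. The 5 were ImpE2 (9.21), Fbp1 (5.40), ImpE3 (4.55), ImpE1 (4.19) and Sb (4.12), a serine protease gene of disc eversion. In the control libraries these genes had 33 and 2165, 30213 and 225233, 66 and 339, 92 and 624, and 21 and 113 counts, all past 4-fold higher in control 2. Of all 94 tested pathway genes 10 were past 4-fold higher in control 2 than in control 1 and none was past 4-fold lower, against 2.32% and 1.68% of all tested genes. Of 5 tested genes of the prepupal and pupal cuticle list, the enzyme genes ple (5.92) and Ddc (4.79) and the cuticle gene Pcp (2.32) were higher in rescue than in mutant. Edg78E (0.12) and Edg91 (0.86) were not called there. ple, Ddc and Edg78E were lower in mutant than in control. The share called was 60% in both comparisons, against 16.1% and 17.0% of all tested genes.

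Late puff genes at 71E are known as targets of br and Eip74EF in the salivary gland. Of those listed, Eig71Ea, Eig71Eb, Eig71Ec and Eig71Ed were found almost solely in control 2. Eig71Ef and Eig71Eg had only 35 and 33 counts there and at most 9 in any other library. Eig71Eh, Eig71Ei, Eig71Ej and Eig71Ek had 0 counts there and at most 2 in any other library. Eig71Ea had 13 and 22 counts in rescue, 0 and 0 in mutant and 3 and 1053 in control. Eig71Eb had 1 and 5, 1 and 1, and 0 and 984 counts in the same order of groups. Eig71Ec had 2 and 1, 0 and 1, and 0 and 847 counts, and Eig71Ed 331 counts in control 2 and 0 in the other libraries. In control 2 Eig71Ea to Eig71Ed stood at a level that none of the other 5 libraries approached, rescue included. Both rescue libraries nevertheless lay above control 2 at Eip78C and Hr4. Except for Eig71Ea, which was not called, these late puff genes did not pass the filter on low counts, since 1 library alone held them or counts were near 0. They were named after their values were seen. Eig71Ee, a gene of the same cluster that is expressed with the glue genes, differed: it had 20233 and 30403 counts in rescue, 15 and 763 in mutant and 5494 and 24530 in control (log2 5.92 for rescue against mutant, adjusted p = 0.0441).

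**Figure D5:**
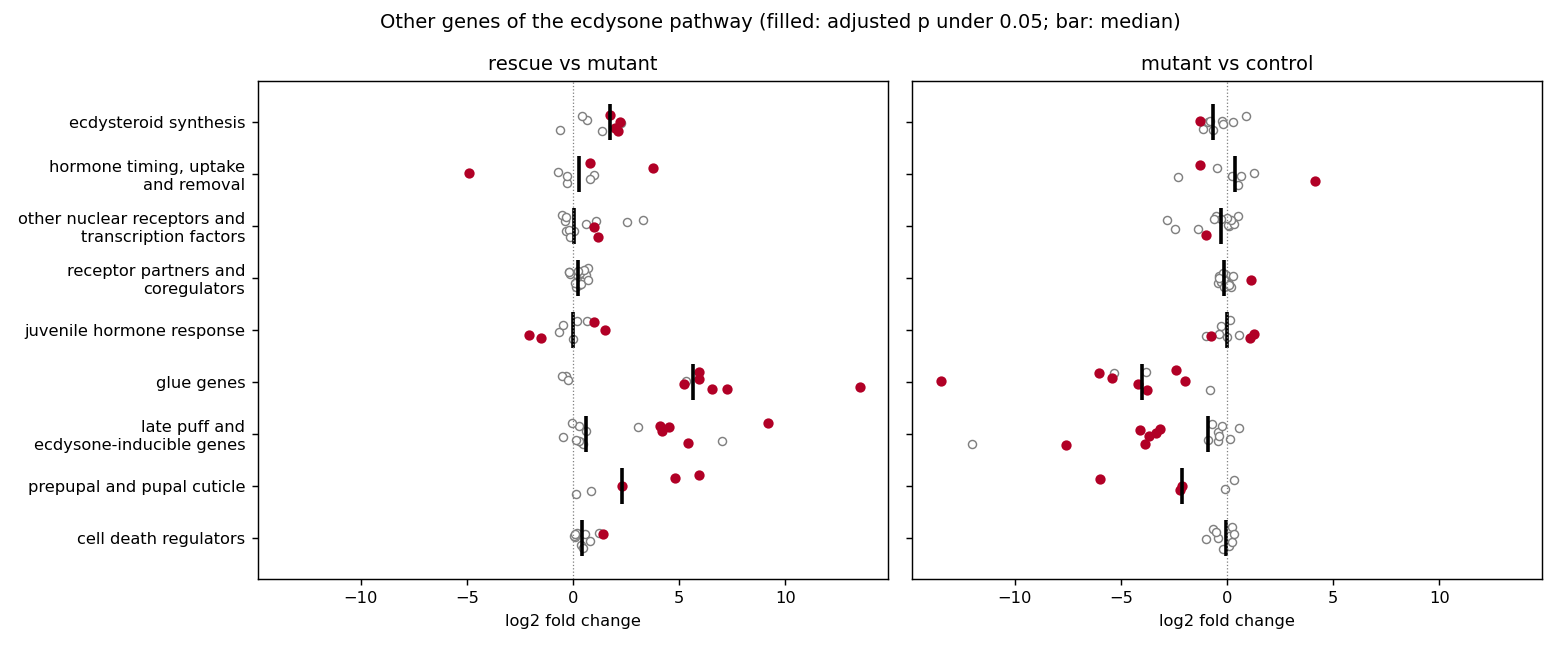
Log2 fold changes of the tested genes of the 9 other pathway lists for rescue against mutant and mutant against control; filled points have an adjusted p under 0.05 and bars are medians. Glue genes have medians of 5.63 and -4.03, and the receptor partners and coregulators have 1 filled point, Bin1 at 1.10 for mutant against control. Sgs1, with 0 and 1 counts in mutant, is the outermost point in both panels. Eig71Ea, with 0 in both mutant libraries, is next to it for mutant against control only. Both are fitted values that depend on the prior count of the fit, not that of log2 CPM.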

How the data were processed

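Polyadenylated RNA of larvae was sequenced in 6 libraries, 2 for each of 3 genotypes taken from the labels. The deposited count table holds raw read counts per gene, per the file headers with NCBI gene identifiers, and the deposited FPKM table holds the same counts divided by gene length and by 1 constant per library set by the authors. The sources used here do not name the aligner, counter, strand setting or genome build. By position, 99.5% of the 17669 genes matched to RefSeq Release 6 share its start, and the 10 genes share start and end with Ensembl's annotation of that release. Differences were tested with edgeR 4.0.16 (quasi-likelihood) in R 4.3.3: filterByExpr with a minimum count of 10, TMM factors, all 6 libraries in 1 fit without a block, Benjamini-Hochberg over 11866 genes, threshold 0.05. SE is the log2 fold change over the square root of F. Log2 CPM used a prior count of 2. DESeq2 1.42.0, limma-voom 3.58.1, other scalings, no filter, a replicate block and leaving out each library were alternatives. No measured value entered the rule for the 10 genes, but they and the lists were chosen with earlier results of these data known. Named pathway genes are at most 6 called genes per list, those with the largest changes; lint-1 was not matched. No sequences are shown. Intervals of fold changes come from the fit and include spread between libraries, and intervals of ratios between replicates cover counting error only.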

Additional observations from a re-analysis of the deposited data

How the results depend on the processing

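No called log2 fold change of the 10 genes changed sign under any of the 14 alternatives; 2 uncalled ones did. EcR for mutant against control turned to 0.038 with library totals as scaling and ranged over -0.50 to 0.11 with 1 library left out (0.11 without mutant 1). Eip93F for rescue against control turned to 0.040 with library totals, 0.12 with limma-voom and 0.11 with the replicate block, and ranged over -0.93 to 1.36 with 1 library left out (1.36 without control 2). The 3 members called for mutant against control became 1 with library totals and 5 with no filter or with DESeq2. The share called of all tested genes, 17.0% in the main fit, was 17.4%, 14.4% and 21.7% under these settings. The pathway genes called for rescue against control, 0 by edgeR, became 2 with library totals, 6 with no filter, 14 with DESeq2, 2 with limma-voom, 1 with only the compared groups and 1 with the replicate block. In that comparison 105 pathway genes were tested with no filter, 99 with DESeq2 and 93 with only the compared groups, against 94 otherwise. Over all genes the 76 calls of that comparison became 135 (101 higher and 34 lower, against 42 and 34), 478, 996, 104, 11 and 117. Library totals split the 2064 calls for mutant against control into 1554 higher and 510 lower, against 1180 and 835, and shifted the median of all genes to 0.19 for mutant against control, 0.38 for rescue against control and 0.11 for rescue against mutant. Leaving out 1 library gave 1 to 4 members, 5 to 33 pathway genes and 611 to 1930 genes for mutant against control. It gave 0 to 2, 0 to 14 and 12 to 778 for rescue against control, and 2 to 7, 7 to 33 and 400 to 2504 for rescue against mutant. The labels do not say that replicate numbers pair libraries, and the differences between replicates correlated across genes at 0.036, 0.055 and 0.016 between groups. With the replicate block 3, 0 and 7 members were called, Eip93F being added for rescue against mutant (adjusted p = 0.0357). The shares called of all tested genes with the block were 15.4%, 0.986% and 14.9%. The causes were not tested.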
